A study of Mus musculus with 4 samples.

Results

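The Smad genes and the related corepressor genes Ski and Skil are the 10 genes described here: Smad1, Smad2, Smad3, Smad4, Smad5, Smad6, Smad7, Smad9, Ski and Skil. They were picked by name from 21896 protein-coding genes and looked up in 2 lists of DNMT3B-enriched regions. DNMT3B is an enzyme that adds new methyl groups to cytosines, mostly at CpG dinucleotides. Its binding was profiled by chromatin immunoprecipitation and sequencing (ChIP-seq) in metastases that 4T1 cells, a mouse mammary tumour line, had formed in the lungs of BALB/c mice. There were 2 libraries made with the DNMT3B antibody and 2 input libraries made without antibody, and each kind carried the lung labels 3 and 5. All 4 libraries came from metastases of the same line, and the labels name no other treatment, primary tumour or tumour-free lung. The labels do not say whether the lungs were from separate mice or how much host lung tissue each sample held.

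Smad proteins carry signals of the TGF-beta family to the nucleus. Activated receptors phosphorylate a receptor-regulated Smad, which joins the common Smad, Smad4, and moves to target genes with it. Smad2 and Smad3 serve the TGF-beta and activin receptors, Smad1, Smad5 and Smad9 serve the BMP receptors, and the inhibitory Smad6 and Smad7 hold the pathway back. Ski and Skil, whose product is also called SnoN, bind Smads and recruit corepressors. In mammary tumours the pathway is known both for growth arrest and for invasion and metastasis.

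The narrow list, made with MACS, held 1705 distinct regions, and the broad list, made with SICER, held 8242 islands. Both give positions and gene names for the whole series. They carry no value for a library, so no spread between libraries, no depth and no test could be had, and every count below is a description. A gene counted as having a narrow region when the narrow list named it as nearest or overlapping gene, and as having an island when the broad list paired the island with it. Positions are printed as deposited. Their genome build is unknown. The submitters' processing notes name mm10, but gene starts differ from that assembly by 101.1 to 625.9 kb at the 5 genes named below. The broad list gives the starts of Smad3, Ski and Smad7. Those of Smad4 and Skil were worked out from the narrow region and its deposited distance. The genes are therefore those the lists themselves name; with the positions read as mm10, the same assembly as GRCm38, 1 gene (Ski) would have a narrow region and 0 would have an island.

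Of the 10 genes, 5 were named in at least 1 list, against 20.9% of all protein-coding genes. Smad4 and Skil had a narrow region alone, Smad3 and Ski had islands alone, and Smad7 had both. Smad1, Smad2, Smad5, Smad6 and Smad9 had neither. The narrow list thus named 3 of 10 (30.0%), against 6.14% of all protein-coding genes. The broad list also named 3 of 10 (30.0%), against 17.2% of all protein-coding genes. A region and an island together were found for 1 of 10, against 2.46% of all protein-coding genes, and neither for 5 of 10, against 79.1%. All 3 narrow regions also lay in the gene or up to 5 kb upstream, where 5.91% of protein-coding genes had one, and 1 of them overlapped the gene, as for 5.03%. All 3 genes with islands had one that overlapped the transcript, as did 13.8% of protein-coding genes, and one with its midpoint in the gene or up to 5 kb upstream, as did 13.2%. The 10 genes are longer than most, with RefSeq spans of 27.9 to 111.2 kb and a median of 64.7 kb, against a median of 17.1 kb for all protein-coding genes. Among the 5857 protein-coding genes in that range of spans, the narrow list named 8.04% and the broad list 21.3%. With 10 genes, the island share is near this background. The narrow share is above it, but it rests on 3 genes and was not tested. Shares in that range of spans were not taken for genes in at least 1 list, in both or in neither.

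**Figure D1:**
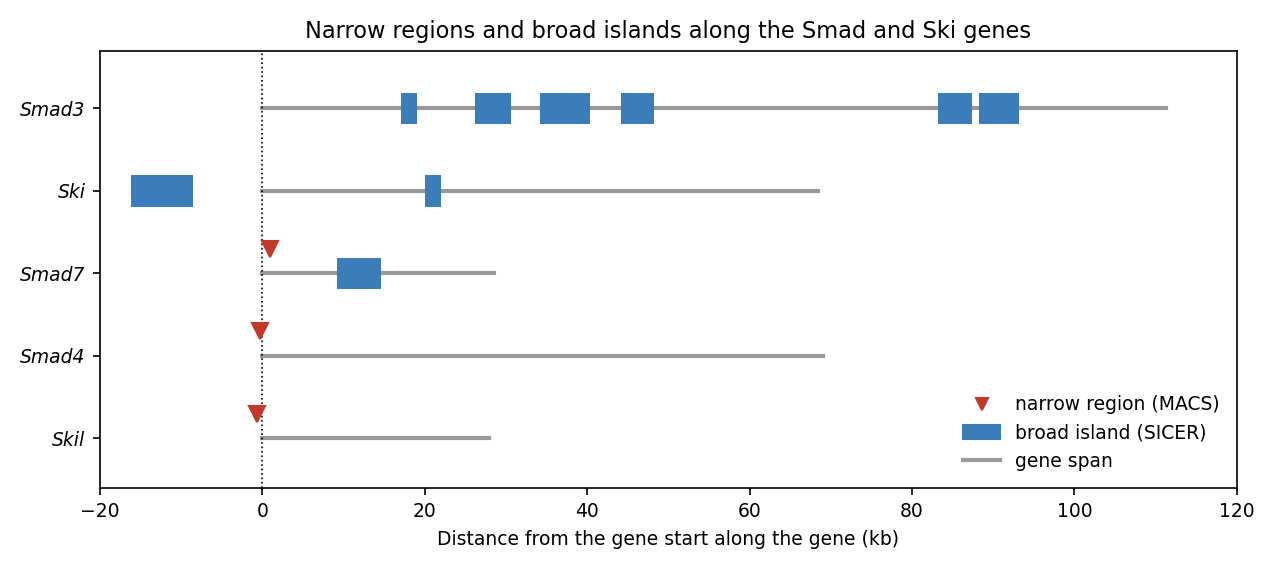
Regions along the 5 named genes, by distance from the gene start in kb. Grey lines are gene spans (from the broad list, or from RefSeq for Smad4 and Skil), blue boxes are broad islands and red triangles mark the middle of narrow regions. The 3 narrow regions lie within 2 kb of a gene start. The matching share of all narrow regions is not given. The 9 islands, 6 of them at Smad3, do not lie within 2 kb of the start of their gene. Of all protein-coding genes with an island, 39.5% had one there.

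The 250 bases before the gene start are shown for Smad3 and Ski, which had islands, and for Smad6, the neighbour of Smad3 that had none, since CpG dinucleotides (capitals) are what DNMT3B methylates. The sequences are those of RefSeq.
Smad3 (GRCm38.p6, chr9:63757995-63758244, minus strand): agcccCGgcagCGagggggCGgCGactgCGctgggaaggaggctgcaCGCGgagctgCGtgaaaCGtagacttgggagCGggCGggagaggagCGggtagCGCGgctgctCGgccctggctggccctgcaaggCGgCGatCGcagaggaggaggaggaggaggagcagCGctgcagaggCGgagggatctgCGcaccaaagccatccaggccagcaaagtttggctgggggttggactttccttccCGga
Ski (GRCm38.p6, chr4:155222536-155222785, minus strand): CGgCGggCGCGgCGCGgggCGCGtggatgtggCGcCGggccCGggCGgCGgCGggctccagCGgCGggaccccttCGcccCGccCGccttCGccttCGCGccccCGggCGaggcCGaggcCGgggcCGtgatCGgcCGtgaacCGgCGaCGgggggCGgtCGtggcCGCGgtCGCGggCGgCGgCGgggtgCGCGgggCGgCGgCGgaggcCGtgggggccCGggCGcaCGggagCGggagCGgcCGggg
Smad6 (GRCm38.p6, chr9:64022060-64022309, minus strand): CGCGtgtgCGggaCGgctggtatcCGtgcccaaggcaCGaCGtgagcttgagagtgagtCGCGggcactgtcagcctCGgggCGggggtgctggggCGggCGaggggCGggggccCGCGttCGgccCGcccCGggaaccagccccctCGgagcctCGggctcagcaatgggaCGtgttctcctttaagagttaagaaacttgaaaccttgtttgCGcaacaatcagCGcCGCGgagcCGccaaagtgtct

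These promoters were rich in CpG. A RefSeq promoter was matched by symbol for 6 of the 10 genes, Smad1, Smad3, Smad5, Smad6, Smad9 and Ski. Smad2 and the 3 genes with a narrow region, Smad4, Smad7 and Skil, had none matched. As deposited, the nearest island edge lay 17.0 kb from the Smad3 start and 8.56 kb from the Ski start. Neither of these 2 windows therefore lay in an island of its gene. Smad3 had 22 CpG in 250 bases, Ski had 53 and Smad6 had 27. Over the promoters of 17491 protein-coding genes the median was 10, with quartiles of 3 and 19, so all 3 lay above the upper quartile. For Ski, 6 of the 17491 promoters, its own included, had as many CpG or more, and 87.6% of its bases were G or C. The BMP-branch genes without any call had similar counts to Smad3, with 25 for Smad1, 24 for Smad9 and 22, 27 and 27 for the 3 starts of Smad5. Across all genes with a promoter in the table, the median was 18 CpG for those with a narrow region, 15 for those with an island and 7 for those with neither. A pair of short Smad-binding motifs was searched in the same windows. CAGAC, on either strand, was found in the third Smad5 start alone among these 6 genes, and in 40.9% of all promoters. GGCGCC, which reads the same on both strands and contains a CpG, was found once each in Ski, Smad9 and the second Smad5 start, and in 12.1% of all promoters.

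**Figure D2:**
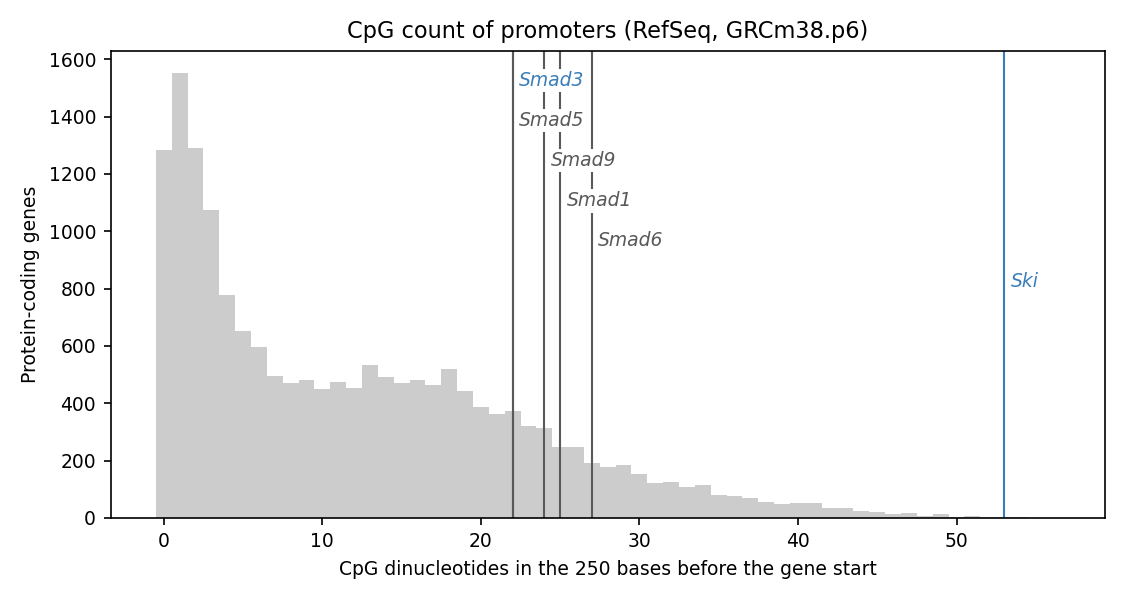
CpG dinucleotides in the 250 bases before the gene start for 17491 protein-coding genes (grey bars, number of genes). Vertical lines mark the 6 matched Smad and Ski genes at their first listed start, blue for Smad3 and Ski, which had islands; Ski, at 53, lies at the far end and the others between 22 and 27.

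Among the receptor-regulated Smads, 1 of 5 was named in either list, near the 20.9% of all protein-coding genes, and that was Smad3. Its transcript, NM_016769, spans 111229 bp on the minus strand of chromosome 9, from 63494573 to 63605801, and was paired with 6 islands. In order from the gene start, the first ran from 63586800 to 63588799, which is 17.0 to 19.0 kb into the gene. The second lay 26.2 to 30.6 kb in, the third 34.2 to 40.4 kb in and the fourth 44.2 to 48.2 kb in. The first 4 islands thus stood within the leading 43.3% of the transcript, with gaps of 7200, 3600 and 3800 bp. After a gap of 35000 bp came the fifth, 83.2 to 87.4 kb in, and 800 bp further the sixth, 88.2 to 93.2 kb in, from 63512600 to 63517599. The islands were 2000 to 6200 bp wide and together covered 25800 bp, or 23.2% of the transcript. The stretch of 17002 bp after the gene start and the last 18.0 kb held no island.

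Smad3 stood among the genes with many islands. Of 3770 protein-coding genes with an island, 175 (4.64%) had 6 or more, and the median was 1. Genes with 6 or more islands had a median transcript span of 92.5 kb, against 21.1 kb for all genes with an island, so that number goes with length. Per 100 kb of transcript, Smad3 had 5.39 islands. Genes with an island and a span of at least 50 kb had a median of 1.84 (quartiles 1.07 and 4.48, 895 genes), so Smad3 lay above the upper quartile there. Of the 175 genes with 6 or more islands, 75 (42.9%) had none within 2 kb of the gene start, as was the case for Smad3.

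**Figure D3:**
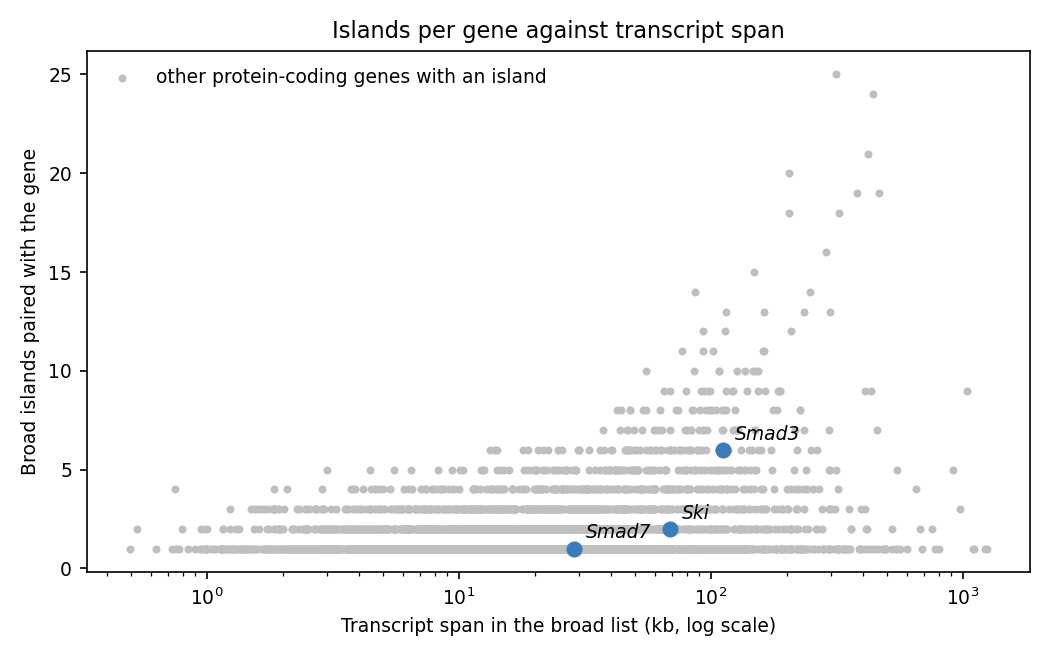
Broad islands paired with each protein-coding gene against the gene's transcript span in kb (log scale). Each grey point is 1 of the other genes with an island, and Smad3 (6 islands), Ski (2) and Smad7 (1) are marked in blue.

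Smad4, the common Smad, had a narrow region close before its start and no island. The region ran from 73863600 to 73863800 on chromosome 18, 204 bp upstream of this minus-strand gene by the deposited distance. Positions there are rounded to 100 bp, so the distance is known only to that step. The region stood on 4 lines of the narrow list. Of the 1705 regions, 321 (18.8%) stood on 4 or more lines and 863 (50.6%) on 1 line, as did those of Smad7 and Skil. The sources used here do not say what a repeated line means. The nearest island of the broad list on the chromosome lay 570.2 kb away. That list holds only islands paired with a gene.

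The inhibitory Smads differed from each other in both lists. Smad7 had a narrow region and an island, and Smad6 had neither. The narrow region of Smad7, from 75527800 to 75528200 on chromosome 18, was described as contained within the gene. Against the transcript NM_001042660, from 75527018 to 75555588 on the plus strand, it lay 782 to 1182 bp after the start, in the first 4.14% of the span. The positions of this region are rounded to 100 bp. The island ran from 75536200 to 75541599, which is 9.18 to 14.6 kb into the gene, and covered 18.9% of the transcript. The region and the island were 8.0 kb apart. Of 538 protein-coding genes with both, 216 (40.1%) had a narrow region that shared at least 1 bp with an island of the gene. For the other 322, of which Smad7 is 1, the smallest gap had a median of 10.5 kb (quartiles 3.8 and 22.0 kb).

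The corepressor genes also differed, with islands at Ski and a narrow region at Skil. Ski, transcript NM_011385 on the minus strand of chromosome 4 from 154528183 to 154596644, was paired with 2 islands. The wider, 7600 bp from 154605200 to 154612799, lay outside the transcript, 8.56 to 16.2 kb before the gene start. It entered the list through 1444 bp within 10 kb of the gene. The other, 2000 bp from 154574600 to 154576599, lay 20.0 to 22.0 kb inside the gene and covered 2.92% of the transcript. Skil had a single narrow region, from 30993200 to 30993300 on chromosome 3, 680 bp upstream of this plus-strand gene. The positions of that region are also rounded to 100 bp. The nearest island of the broad list on the chromosome lay 3406.4 kb away.

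None of the 3 narrow regions shared a base with an island. In the whole list 521 of 1705 (30.6%) did. Of the 275 regions deposited as upstream of a gene by at most 1 kb, 73 (26.5%) did. Smad4 and Skil had no island, so only the region of Smad7 could meet an island of its own gene. Of the 538 protein-coding genes with both, 216 (40.1%) had a region that shared a base with an island of the gene. With 3 regions, and 1 gene with both, the lack of a shared base does not set these genes apart. All 3 narrow regions lay within 2 kb of a gene start. Those of Smad4 and Skil lay upstream by at most 1 kb, as did 275 of all 1705 (16.1%). The share of all narrow regions within 2 kb of a start is not given, since starts inside the lists are only partly known. None of the 9 islands lay within 2 kb of the start of their gene, and 6 of them were those of Smad3. By gene, 0 of 3 had such an island, against 1490 of the 3770 genes with an island (39.5%). Over all protein-coding genes, 6.80% had such an island. With 3 genes with islands, a count of 0 does not set them apart. The 9 islands were 2000 to 7600 bp wide, and 4 reached the median of the whole broad list, 4800 bp (quartiles 3000 and 7600 bp).

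How often a gene was named differed widely between the chromosomes that carry these genes. Smad2, Smad4 and Smad7 share chromosome 18, where the narrow list named 4.12% of 510 protein-coding genes and the broad list 4.71%. The 36 islands on that chromosome include that of Smad7. On chromosome 9, with Smad3 and Smad6, the shares were 4.0% and 14.5% of 1201 genes. Chromosome 8, with Smad1, had the highest shares of the 6 chromosomes, 10.2% and 35.5% of 1042 genes, yet Smad1 had neither. Smad5, on chromosome 13, stood among 829 genes of which 1.81% and 4.95% were named, and Ski, on chromosome 4, among 1328 of which 1.81% and 10.4% were. Smad9 and Skil, on chromosome 3, stood among 983 of which 5.39% and 9.16% were. The part of the chromosome in the calls of these genes was not tested.

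**Figure D4:**
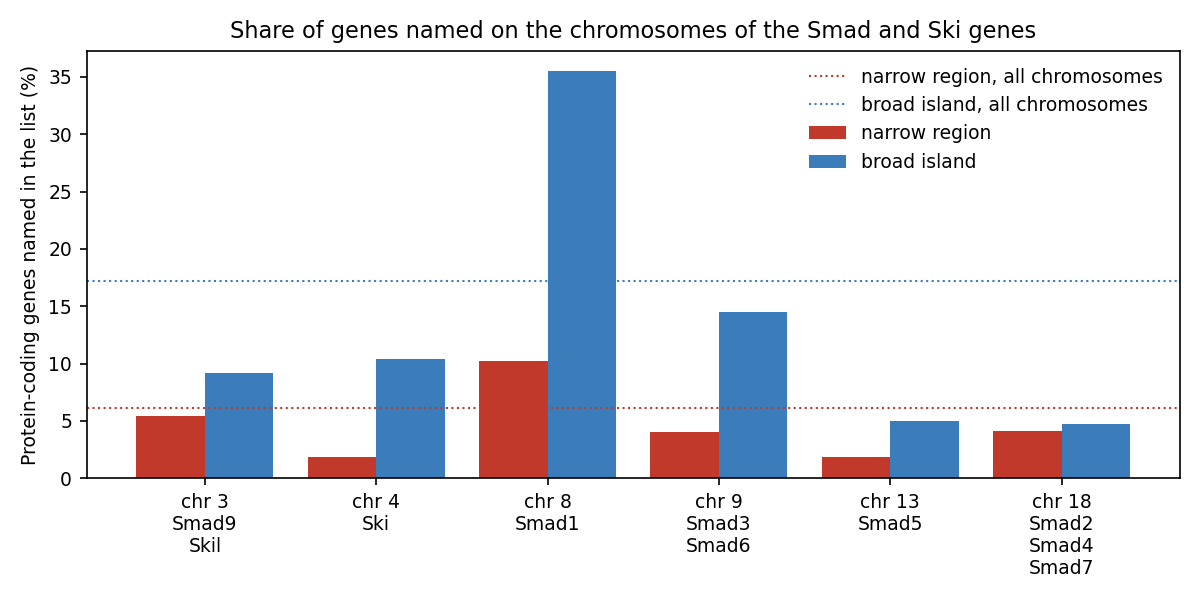
Share of protein-coding genes (%) named by the narrow list (red bars) and the broad list (blue bars) on each chromosome that carries a Smad or Ski gene; dotted lines are the shares over all chromosomes, 6.14% and 17.2%. Chromosome 8 stands highest and chromosomes 13 and 18 are lowest for islands.

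In RefSeq gene order, Smad6 and Smad9 were the unnamed genes that sat directly beside a gene with an island. Smad6 is the next protein-coding gene after Smad3, and no island was paired with it, while Aagab, on the other side of Smad3, had an island. Smad2 lies 3 genes from Smad7. Smad9 lies beside Rfxap, which had an island, and Smad5 beside Tgfbi, a gene induced by TGF-beta, which had none. The nearest island gene to Smad1, Zfp827, was 3 genes away. The broad list gives only 1 gene for each island, so an island near a neighbour is not counted for the gene beside it.

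The other genes of the pathway, 58 by a list chosen for their roles, were named by the narrow list about as often as genes at large, with 3 of 58 (5.17%, against 6.14%). The broad list named 15 of 58 (25.9%, against 17.2%). Among 9 target genes, 4 had an island: Cdkn1a, a cell cycle inhibitor, Ccn2, a matricellular growth factor, Id1 and Snai1. The island of Ccn2 covered 84.9% of its transcript and lay across the gene start, as did that of Id1, an inhibitor of differentiation, which was 2400 bp wide and covered the whole transcript. The nearest edge of the Cdkn1a island lay 3.88 kb from the start, and the island covered 44.1% of the transcript. The nearest edge of the Snai1 island lay 1.87 kb from the start, and the island covered 48.0% of the transcript. Snai1, a transcription factor of epithelial-mesenchymal transition, also had an intronic narrow region at 167364000 on chromosome 2. As deposited, that region lay outside the island. Its position is rounded to 1000 bp and the island is 2200 bp wide, so this is known only to that step.

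Of 11 ligand genes, 3 had islands (27.3%, against 17.2% of all protein-coding genes). Bmp7 had 4 that covered 25.8% of the transcript, Tgfb3 had 1 (20.6%) and Inhbb, an activin subunit gene, had 1 (41.3%). Of 13 receptor genes, 4 had islands (30.8%). Acvr2b, an activin receptor, had 4 that covered 31.0% of the transcript, the nearest 0.182 kb from the gene start. Eng, a coreceptor, had 1 (14.4%), Acvr1b had 1 outside the transcript, and Tgfbr3, a coreceptor, had 1. A narrow region was listed for 0 of these 24 genes, against 6.14% of all protein-coding genes. With 24 genes, a count of 0 is near that share.

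Of 9 extracellular regulators, Ltbp2 and Ltbp3, of the latent TGF-beta binding protein family, had islands (22.2%, against 17.2% of all protein-coding genes). Those of Ltbp2 numbered 7 and covered 60.9% of the transcript. Those of Ltbp3 numbered 2, covered 32.5% and held all 6 of its narrow regions. Of 16 Smad partners and regulators, 2 had islands (12.5%), which covered most of the transcript. They were Smurf1, a ubiquitin ligase that targets Smads, with 7 islands (71.7%), and Pmepa1, an inhibitor of Smad signalling, with 6 (64.5%). Crebbp, a coactivator that Smads recruit, had a narrow region 1035 bp upstream, from 4214440 to 4214510 on chromosome 16, and no island. Of the 15 pathway genes with an island, 11 had a covered share above the 23.2% of Smad3, the highest of the Smad and Ski genes. The covered share depends on transcript length. At Id1, 1 island of 2400 bp covered a transcript of 1138 bp, while the Smad3 transcript spans 111229 bp.

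**Figure D5:**
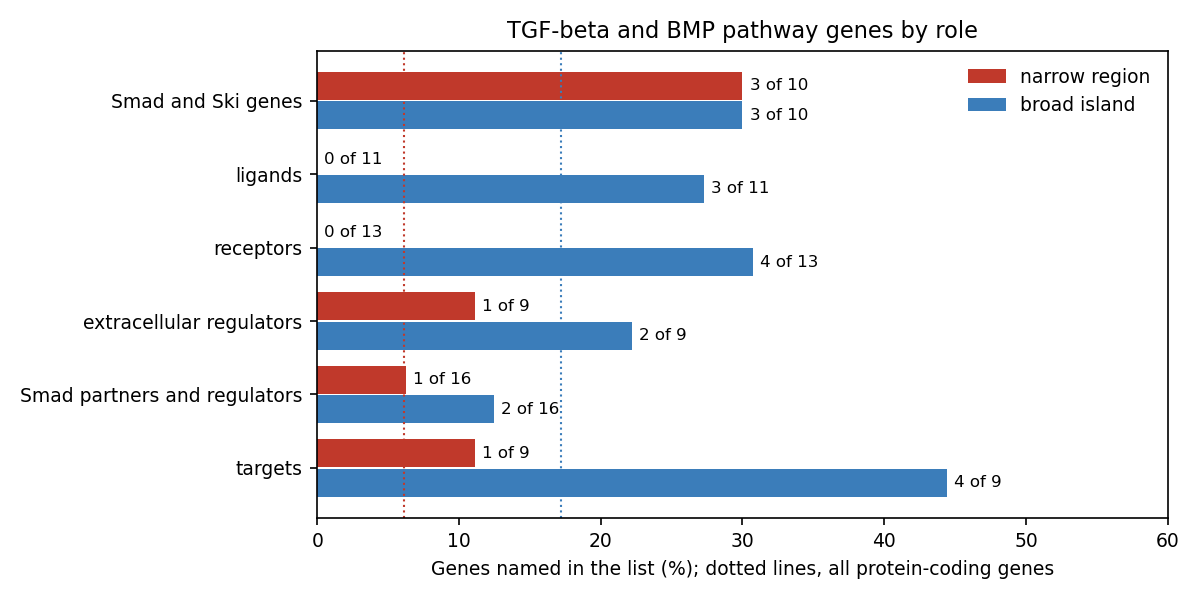
Share of genes (%) with a narrow region (red) and with a broad island (blue) among the 10 Smad and Ski genes and 58 other TGF-beta and BMP pathway genes by role, with counts beside the bars; dotted lines are the shares of all protein-coding genes, 6.14% and 17.2%. Narrow regions were found for 3 of 10 Smad and Ski genes and for 3 of the 58 others.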

How the data were processed

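DNMT3B ChIP and input libraries of 4T1 lung metastases, 2 of each, gave 2 region lists. The submitters' processing notes name Bowtie2 2.10, MACS 1.4 and SICER. The narrow list is itself named for MACS2 and tagged p05, and the broad list is tagged top20; the notes explain neither tag. If they mark a threshold or a selection, a gene without a call may have had a region that these lists leave out. Whether libraries were pooled was not given in the sources used here. All deposited values are base positions and distances; the authors' lists hold no count, score or p-value, so depth is unknown. Narrow positions carry at most 6 significant digits. Identical narrow lines, 4304 in all, were counted once, and an end written as a question mark (2 lines) was set to the start. For all 8242 islands, the deposited overlap was, within 1 bp, that with the gene lengthened by 10 kb at both ends.

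The notes name mm10, but gene starts in the lists differ from RefSeq GRCm38.p6. Those given by the broad list differ by -152.2 kb at Smad3, -625.9 kb at Ski and 159.7 kb at Smad7. Those worked out from narrow regions and their distances differ by 159.6 kb at Smad4 and -101.1 kb at Skil. The build of the list positions is thus unknown, they are given as deposited and unconverted, and they are not comparable with the positions printed beside promoter sequences. Names were matched by transcript, symbol or unique synonym to protein-coding genes, for 93.8% of narrow regions and 95.2% of islands. The 10 genes, the pathway list and the comparisons were chosen with earlier results of these data known; all 10 are named, as are the pathway genes with a narrow region, and islands are detailed for up to 3 genes of a role. A pair of genes of the pathway list is not reported here and enters none of its counts. No test was run. The place and overlap calculations were tested on simulated data. Python 3.11.15, pandas 2.3.3 and numpy 2.4.6 were used.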

Additional observations from a re-analysis of the deposited data

How the results depend on the processing

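The 3 genes with a narrow region stayed 3 with regions in the gene or up to 5 kb upstream, within 2 kb of the start, or by nearest gene alone; with overlap of the gene itself required the count was 1 (Smad7), since the regions of Smad4 and Skil lie upstream. The 3 genes with islands stayed 3 with islands in the gene or up to 5 kb upstream, overlapping it or at least as wide as the median; within 2 kb of the start there were 0, and then 0 genes had both calls. The genes with neither numbered 7 with overlap required and 7 within 2 kb of the start, in place of 5. With every line counted, the 3 narrow regions stood on 6 lines. With at least 50% of the region shared, or positions widened or moved by a rounding step's margin, 0 of the 3 narrow regions lay in an island, as before. Pathway genes with an island numbered 14 in place of 15 with the 5 kb rule, and those with a narrow region 3 under both. An alternative chosen after seeing the data read all positions as GRCm38, within 5 kb of the RefSeq gene: 1 gene had a narrow region (Ski), 0 had an island, 0 had both and 9 had neither. No paired analysis was possible because neither list gives values by library; leaving out a library could not be tried either. Unknown depth means that a gene without a call cannot be told apart from a gene below the callers' reach.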

Other observations

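Which of these genes carries a narrow region depends on the build in which the positions are read. As deposited, the regions lie beside Smad4, Smad7 and Skil. Read as GRCm38, the regions of Smad4 and Smad7 would lie 159.81 and 160.44 kb from the nearest protein-coding gene start, and that of Skil 2.44 kb from one. Ski would instead hold 2 regions, both rounded to 1000 bp: the one deposited under Dvl1, 0.535 kb from the Ski start, and the one deposited under Aurkaip1, 16.5 kb from it.

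Over the whole narrow list, 1621 regions named a protein-coding gene, and for 574 of these a named gene was the same under both readings within 5 kb. Of the other 1047, at least 430 lay within 1 kb of a gene start as deposited and 111 did when read as GRCm38. The first number is a lower limit, since starts inside the lists are known only for genes paired with an island or lying downstream of a region. On chromosome 18, 15 of 21 such regions named the same gene under both readings, and the regions of Smad4 and Smad7 were 2 of the other 6. On chromosome 4, the gene differed for all 26.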
